A study of Mus musculus with 5 samples.

Results

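The comparison described here was the pair of luminal epithelium libraries from day 3 morning and day 4 morning of pregnancy, 2 of the 5 wild-type libraries analysed. Its members were all genes of the deposited table, which held 23420 features. Of these, 12631 averaged 1 CPM or more over the 2 libraries and were kept, where CPM is the count relative to the scaled size of its library. All females were C57BL/6N wild types, and the day of the vaginal plug counted as day 1. Females were killed on the morning of day 3 or day 4, and the luminal epithelium was taken from uterine sections by laser microdissection. The other libraries came from day 4 evening and, on day 5 morning, from epithelium around the attached embryo and away from it. The hour of the morning collections is not given, nor whether the RNA of several females was pooled, and the age of the females was not used here.

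The mouse uterine lumen is lined by a single sheet of epithelium that receives the blastocyst. Early in pregnancy this epithelium proliferates under ovarian estrogen. Progesterone from the new corpora lutea then stops the proliferation and prepares the receptive state, in which a brief pulse of estrogen induces *Lif*, the cytokine of the uterine glands that acts through Lifr, gp130 and Stat3 in the luminal cells. The day 3 to day 4 interval therefore spans the change from a dividing to a receptive epithelium.

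With 1 library per group there was no replicate and no test, and no p-value is given. A gene was called higher or lower on day 4 morning by size alone, where its log2 CPM (prior count 2) differed by more than 1, which is a 2-fold difference. The 95% interval printed beside a log2 change is the exact interval of the ratio of the 2 counts. It covers counting error only, not the variation between females.

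The 2 libraries held 15334674 and 19529491 counts, and a floor of 3 counts equalled 0.173 and 0.167 CPM. The ribosomal RNA locus *Rn45s* and *Lars2* together took 14.98% of the counts on day 3 morning and 23.2% on day 4 morning, and this share went into the scaling described under the counts below. Epithelial markers were present throughout. The 13 epithelial markers summed to 6487 and 7760 CPM, and all 13 were kept. Of the 14 stromal markers, 2 were higher, none was lower and 7 were negative, and their sum was 841 and 806 CPM. With library totals 0 of them were higher and 3 lower. The 2 higher ones were *Vim*, at 34.8 and 73.7 CPM, and *Pdgfra*. *Col1a1* was negative, at log2 -0.97, and -1.27 with library totals. Of the 8 endothelial markers 7 were kept and 3 were higher, with sums of 15.7 and 32.0 CPM. The immune list had 7 of 11 members kept and 2 higher, with sums of 263 and 378 CPM, and most of this was the macrophage gene *Lyz2*. The 8 smooth muscle markers summed to 32.0 and 59.4 CPM, with *Des* and *Synpo2* higher and *Tagln* lower. The 5 red blood cell genes found summed to 1.44 and 2.90 CPM, and *Hba-a1* and *Hba-a2* were at 0 counts in both libraries. Among the embryo markers *Pou5f1*, *Nanog*, *Cdx2*, *Gata4*, *Tdgf1* and *Zp3* were at 0 in both libraries, and the sum of 1558 and 2141 CPM was almost all *Sox17*, which uterine epithelium itself expresses. Of the 3 embryo markers kept, 2 were higher, *Eomes* (23 and 62 counts) and *Elf5* (49 and 148 counts). Of the ciliated and oviduct markers 3 of 6 were kept and none was called, with sums of 149 and 231 CPM. Of the glandular markers, *Prss28*, *Prss29* and *Ttr* were at 0 in both libraries, and *Foxa2*, which defines uterine glands, had 32 and 51 counts. The glandular sum was 253 and 21.0 CPM. Of this, *Aldh1a1*, described below with the retinoid genes, was 241 CPM on day 3 morning and 11.6 CPM on day 4 morning. The part that other cell types had in the differences below was not tested, and in such tissue fewer cells of a type cannot be told apart from less RNA per cell.

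From day 3 morning to day 4 morning, 912 genes (7.22%) were higher and 1417 genes (11.2%) were lower by over 2-fold. Past 4-fold there were 134 genes higher and 518 lower, and past 8-fold 41 and 193. The counting interval lay wholly beyond 2-fold for 453 of the higher and 913 of the lower genes. With library totals in place of the scaled sizes, 490 genes were higher and 2163 lower, so that the higher genes made up 18.5% of the calls in place of 39.2%, and the median of all genes moved from 0.01 to -0.29 on the log2 scale. Genes of low level were called most often. Between 1 and 5 CPM, 15.8% of 2454 genes were higher and 24.0% were lower, while between 20 and 100 CPM the shares were 3.54% and 5.28% of 4943 genes. Above 100 CPM the balance was the other way, with 7.19% of 1683 genes higher and 3.27% lower. Set beside it by the same rule, the step from day 4 morning to day 4 evening had 6.15% of genes higher and 6.57% lower. From day 4 evening to day 5 morning the shares were 12.7% and 12.2% away from the embryo and 20.1% and 19.8% around it. These steps share libraries and each rests on 1 pair. Among the genes named in the text, the calls of *Btg1*, *Btg2*, *Cldn3*, *Ctf1*, *Fxyd4*, *Gstm1*, *Hdc*, *Hey2*, *Igf1*, *Isg20*, *Npc2*, *Pfkfb3*, *Rfng*, *Rn45s*, *Socs1*, *Socs7* and *Stat3* as higher ended with library totals, as did those of the markers *Vim*, *Pdgfra* and *Synpo2*. With the same totals *Cfb*, *Hspa5*, *Krt7*, *Muc1*, *Ncaph*, *Ndufa5*, *Prom1* and *Sat1* passed 2-fold as lower, as did the markers *Cd68* and *Col1a1*.

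**Figure D1:**
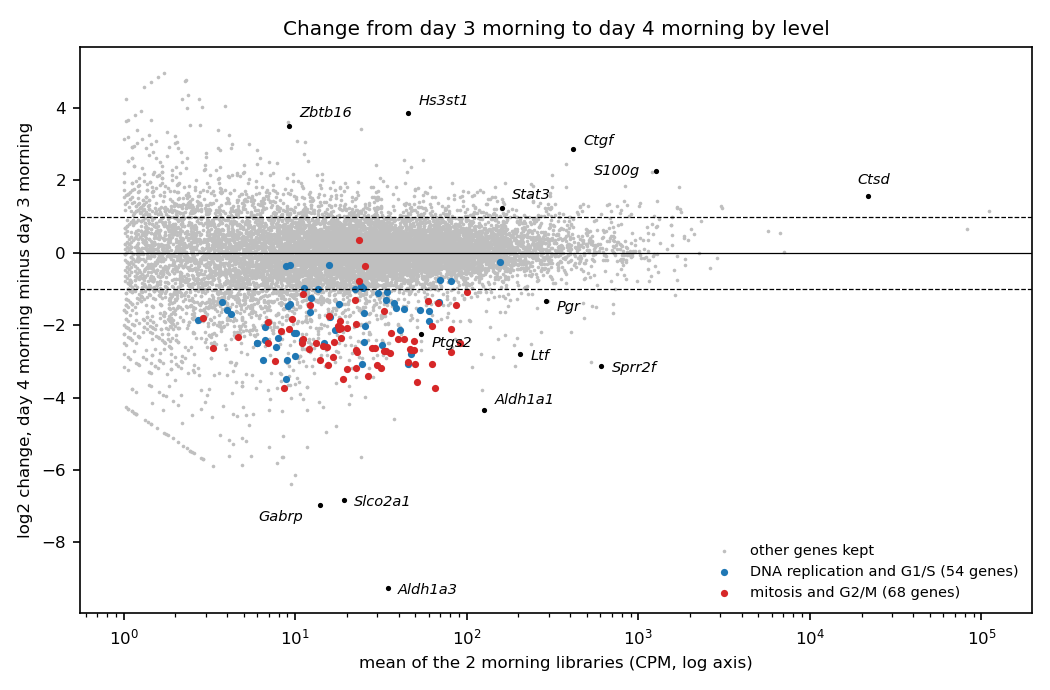
Each point is 1 of the 12631 genes kept, with its mean CPM over the 2 morning libraries (log axis) and its log2 change from day 3 to day 4 morning. Dashed lines mark 2-fold. The 54 DNA replication genes (blue) and 68 mitosis genes (red) lie below 0 with the exception of 1 mitosis gene, and some genes named in the text are marked in black.

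Among genes that averaged 10 CPM or more, the largest decreases were led by 3 genes that were near or at 0 on day 4 morning. *Aldh1a3* (chr7:66390893-66427477, GRCm38, minus strand), which makes retinoic acid, had 1199 counts on day 3 morning and 0 on day 4 morning, at least 413-fold lower against the floor of 3 counts. *Gabrp* (chr11), a subunit of the GABA type A receptor, had 485 counts on day 3 morning and 2 on day 4 morning (log2 ratio interval -11.02 to -6.11). *Slco2a1* (chr9:103008489-103087849, plus strand), the prostaglandin transporter that takes these lipids into cells, had 662 counts on day 3 morning and 4 on day 4 morning, 171-fold lower (95% interval of the log2 ratio -9.30 to -6.06). The rest of the 12 largest decreases included a fibronectin domain gene, transcription factors and a cytokine. *Fndc1* had 820 and 15 counts and *Scx*, a basic helix-loop-helix factor, 512 and 15 counts. *Il1f6*, a member of the interleukin 1 family, had 581 and 20 counts, and *Ubd*, a ubiquitin-like modifier, had 481 and 24 counts. *Steap1*, a metalloreductase, had 389 and 18 counts, and *Cd276*, an immune checkpoint protein, 678 and 37 counts. *Crabp2*, *Aldh1a1* and *Msx2* were also among these 12 and are described with their lists. All the genes named here differed by more than 16-fold, with counting intervals wholly past 2-fold, in 1 pair of libraries.

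The largest increase at this level was that of *Hs3st1* (chr5:39613935-39644631, minus strand), which adds sulfate to heparan sulfate chains. It was at 5.76 CPM on day 3 morning and 85.4 CPM on day 4 morning, 14.8-fold higher (log2 change 3.86, 95% interval 3.60 to 4.20). *Drd4*, the dopamine D4 receptor, had 70 and 797 counts (log2 change 3.42). The potassium channel gene *Kcnc4* was 8.92-fold higher. *Ctgf* (chr10:24595442-24598682, plus strand), which encodes a matricellular protein, had the highest CPM of the 12 on day 4, at 99.8 CPM on day 3 morning and 732 CPM on day 4 morning (log2 change 2.87, 95% interval 2.80 to 2.95). *Cited4*, a coactivator of transcription, was at 118 and 639 CPM. *Cbs*, which converts homocysteine to cystathionine, was 6.93-fold higher, and *Coch*, a secreted protein first known from the inner ear, 6.00-fold. *Ctla2a*, an inhibitor of cysteine proteases, was 5.42-fold higher and *Ripply3*, a transcriptional repressor, 5.17-fold. *Eml2*, which binds microtubules, was 6.00-fold higher, and the remaining 2 of the 12 were the unnamed loci *9530059O14Rik* and *D730039F16Rik*.

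Per length of the counted exons, the level of an mRNA can be compared between genes, and RPKM, the CPM divided by the exon length in kilobases, is used for this here. *Ctsd*, the lysosomal protease cathepsin D, stood at 5649.7 RPKM on day 3 morning and 16748 RPKM on day 4 morning, the highest of all genes on day 4 apart from *Rn45s* and *Lars2*. *Tmsb4x*, which binds actin monomers, was at 10353 and 10597 RPKM, nearly level. Calcium-binding genes were also high, with *Calb1* at 1907 and 2783 RPKM and *S100g* at 909 and 4375 RPKM. Among the 10 genes with the most counts were also *Eef1a1* (4513 and 6914 CPM), which carries aminoacyl-tRNA to the ribosome, *Rnf128* (3044 and 2739 CPM), a ubiquitin ligase, and *Ifitm3* (2272 and 1004 CPM), an interferon-induced membrane protein.

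Genes were grouped into 37 lists by function. Their members were chosen with earlier results of these data known, so that the shares below are a description and not an independent comparison. The counts of each list stand beside 7.22% of all genes higher and 11.2% lower, and beside the list's own counts with library totals where these differ. A share near that of all genes is not read as a result about the list. The plot of all lists shows which of them lay away from the median of all genes. List medians below are given with the scaled library sizes. With library totals, those of the lists of fatty acid synthesis, transcription factors, Lif and Jak-Stat, EGF, prostaglandin, Notch, Bmp, tight junction, ion channel, glutathione, lysosome, glycan and ribosomal protein genes turned from positive to negative, as that of all genes did, so that no direction is drawn from them.

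**Figure D2:**
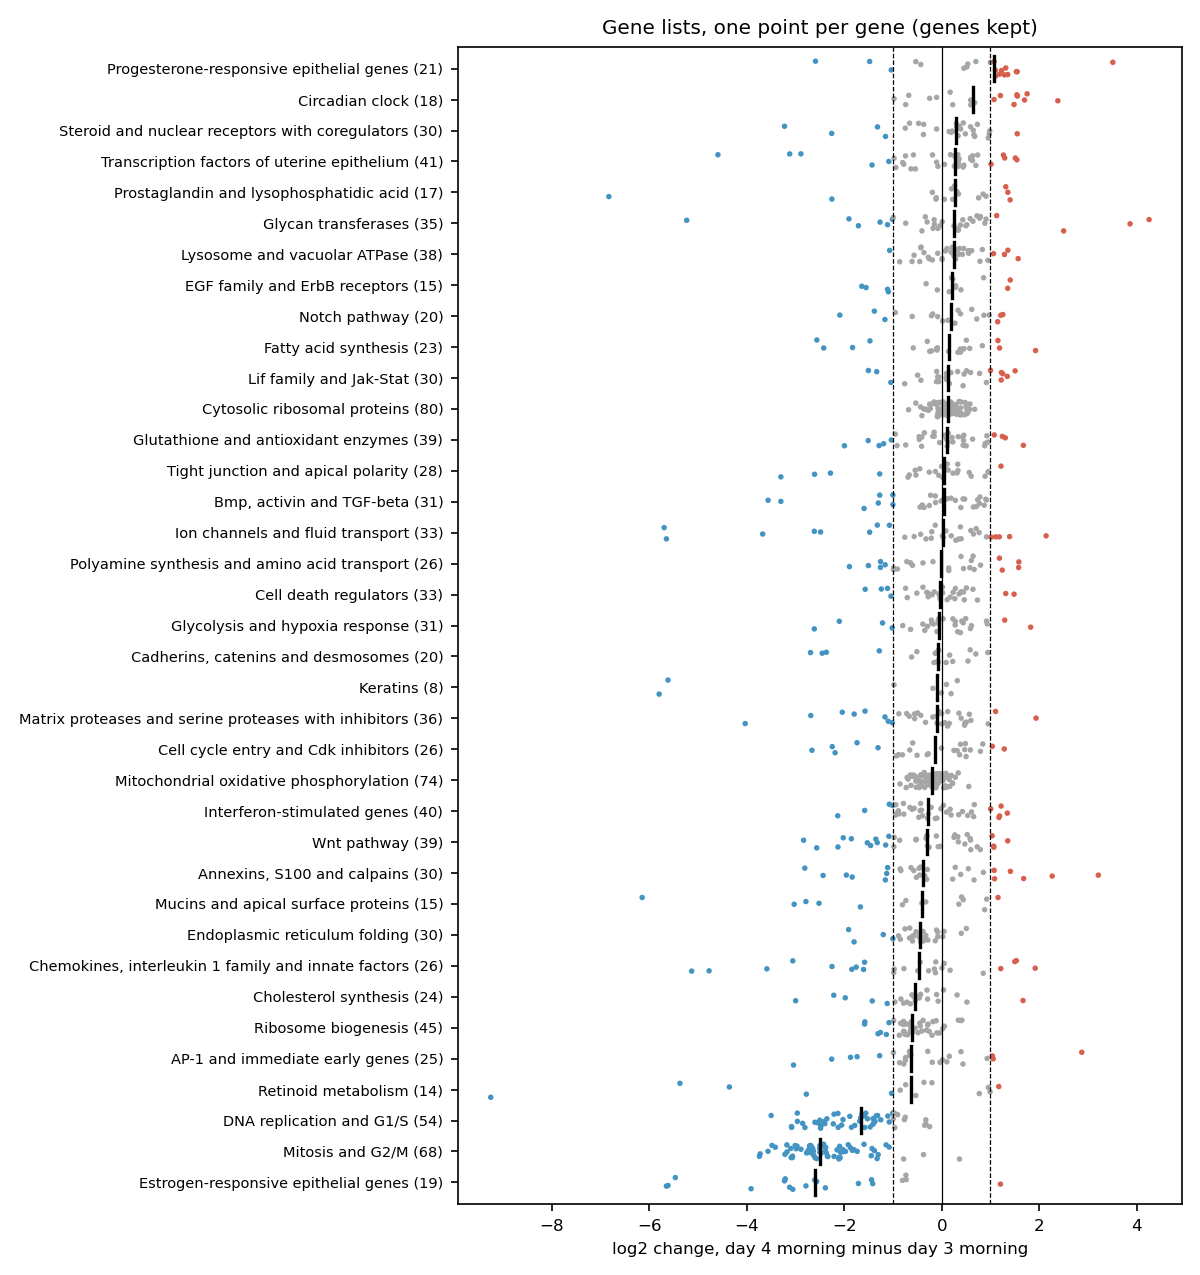
Each row is 1 list with the number of its genes kept, each point is 1 gene, and the x axis is the log2 change from day 3 to day 4 morning. Red and blue points are past 2-fold (dashed lines), thick bars are list medians and the thin solid line is the median of all genes kept. The lowest 3 medians are those of the estrogen-responsive, mitosis and DNA replication lists (-2.61, -2.49 and -1.65), and the highest is that of the progesterone-responsive list (1.07).

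The genes of cell division were lower on day 4 morning almost without exception. Of 68 genes of mitosis and G2/M, 65 were lower by over 2-fold and none was higher (median -2.49, and 0 higher and 66 lower with library totals), where 11.2% of all genes were lower and their median was 0.01. Of 54 genes of DNA replication and the G1/S transition, 44 were lower and none was higher (median -1.65, and 0 higher and 50 lower with library totals). Every gene of both lists was kept. The summed level of the mitosis list was 3416 and 737 CPM and that of the replication list 2027 and 762 CPM. The levels stayed low afterwards, with mitosis sums of 698, 880 and 670 CPM on day 4 evening and on day 5 away from and around the embryo. The difference had the same direction under every scaling tried, the median of the mitosis list being -2.79 with library totals.

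Dividing cells pass through successive waves of transcription. E2F factors switch on the genes of DNA synthesis, and a later complex of B-Myb, FoxM1 and the MuvB proteins switches on the genes of mitosis through promoters with CCAAT boxes and a cell cycle genes homology region. The promoters of 6 genes are shown because they hold these letters and the genes were among the lower ones. The stretches are 130 bases before the annotated start, from RefSeq on GRCm38.p6, read 5' to 3' on the strand of the gene. In the first 3, of the replication list, capitals mark the E2F site. They are *E2f7* (chr10:110745309-110745438, plus strand), *E2f8* (chr7:48881597-48881726, minus strand) and *Gins3* (chr8:95633429-95633558, plus strand).
*E2f7*: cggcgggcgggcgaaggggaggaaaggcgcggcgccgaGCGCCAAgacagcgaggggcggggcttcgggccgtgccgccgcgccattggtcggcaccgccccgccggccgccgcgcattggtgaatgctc
*E2f8*: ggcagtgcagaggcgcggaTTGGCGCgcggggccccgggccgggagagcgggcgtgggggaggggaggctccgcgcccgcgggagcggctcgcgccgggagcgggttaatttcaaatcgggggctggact
*Gins3*: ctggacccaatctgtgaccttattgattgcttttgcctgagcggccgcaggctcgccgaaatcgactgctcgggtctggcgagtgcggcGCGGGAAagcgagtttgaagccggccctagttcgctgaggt
In the next 3, of the mitosis list, capitals mark CCAAT boxes and homology regions, on either strand. They are *Cdc20* (chr4:118437344-118437473, minus strand), *Cdk1* (chr10:69352913-69353042, minus strand) and *Ccnf* (chr17:24251410-24251539, minus strand).
*Cdc20*: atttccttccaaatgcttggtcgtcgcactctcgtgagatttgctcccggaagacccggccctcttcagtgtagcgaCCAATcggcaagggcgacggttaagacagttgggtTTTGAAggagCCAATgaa
*Cdk1*: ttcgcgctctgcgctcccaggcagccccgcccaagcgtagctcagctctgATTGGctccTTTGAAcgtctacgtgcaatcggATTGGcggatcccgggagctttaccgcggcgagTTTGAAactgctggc
*Ccnf*: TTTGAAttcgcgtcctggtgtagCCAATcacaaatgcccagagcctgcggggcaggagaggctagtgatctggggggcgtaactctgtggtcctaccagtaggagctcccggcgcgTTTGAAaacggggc
The E2F site began 92, 111 and 41 bases before the start of *E2f7*, *E2f8* and *Gins3*. In *Cdc20*, *Cdk1* and *Ccnf* the homology region nearest the start began 18, 15 and 14 bases before it.

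**Figure D3:**
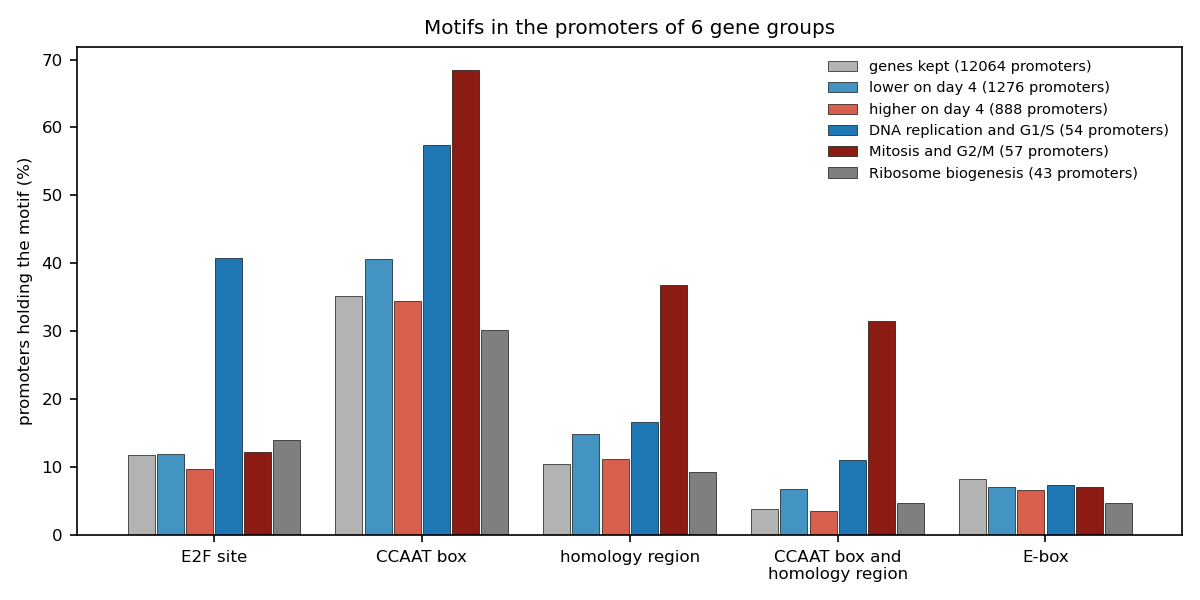
Bars give the share of promoters (250 bases before the start) in 6 groups of genes that hold each motif on either strand. The E2F site is held by 40.7% of replication promoters against 11.7% of those of all genes kept, and the CCAAT box together with the homology region by 31.6% of mitosis promoters against 3.90%.

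Letters were counted in the 250 bases before each start. The E2F site was searched as TTGGCGC, and its other accepted forms were TTCCCGC and, as a further variant, TTCGCGC. The box was searched as CCAAT, the homology region was searched as TTTGAA, and all were sought on both strands. The inverted box, ATTGG on the gene's strand, shares letters with the first form of the E2F site, so that a stretch can count for both. The E2F site was in 40.7% of 54 replication promoters and 12.3% of 57 mitosis promoters, against 6.69% of all 32851 promoters given and 11.7% of those of genes kept. The CCAAT box with the homology region was in 31.6% of the mitosis promoters, 11.1% of the replication promoters, 5.55% of all promoters and 3.90% of those of genes kept. In the promoters of all genes lower on day 4 morning these shares were 11.99% for the E2F site and 6.74% for the pair of motifs. The E-box CACGTG, counted beside them, was in 7.02% of mitosis promoters and 8.22% of those of genes kept. Promoters were found for 44 of the 54 replication genes and 54 of the 68 mitosis genes. Matches of letters are described here and not binding.

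Among replication genes, *E2f7*, a repressor of the E2F family that is itself made in S phase, had 283 counts on day 3 morning and 24 on day 4 morning (log2 change -3.50, 95% interval -4.27 to -3.01). *Rrm2*, the small subunit of ribonucleotide reductase, was 8.56-fold lower (1416 and 171 counts), and *Tk1*, thymidine kinase, 8.62-fold. *Mcm10*, which helps to fire origins, had 202 and 25 counts. *Pcna*, the sliding clamp of the polymerases and the highest of the list in RPKM, was lower by less, at 99.9 and 38.6 CPM. The 10 genes within 2-fold were all negative too, and the smallest change was that of *Tyms* (log2 -0.25), thymidylate synthase.

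In the mitosis list *Pbk*, a mitotic kinase, had the largest change, with 2107 counts on day 3 morning and 161 on day 4 morning (log2 change -3.74, 95% interval -4.00 to -3.53). *Kif2c*, a kinesin that takes microtubules apart at centromeres, had 280 and 20 counts, and *Nusap1*, which bundles spindle microtubules, 1635 and 141 counts. *Cdca2* had 604 and 54 counts. *Mki67*, the Ki-67 proliferation marker, was at 131 CPM on day 3 morning and 30.2 CPM on day 4 morning, 4.33-fold lower. *Cks2*, which binds the Cdks and was highest of the list in RPKM, was 4.08-fold lower. The 3 genes within 2-fold were *Ncaph* (-0.78), *Incenp* (-0.37) and *Pttg1* (0.36), and only *Pttg1*, which encodes securin, was positive.

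**Figure D4:**
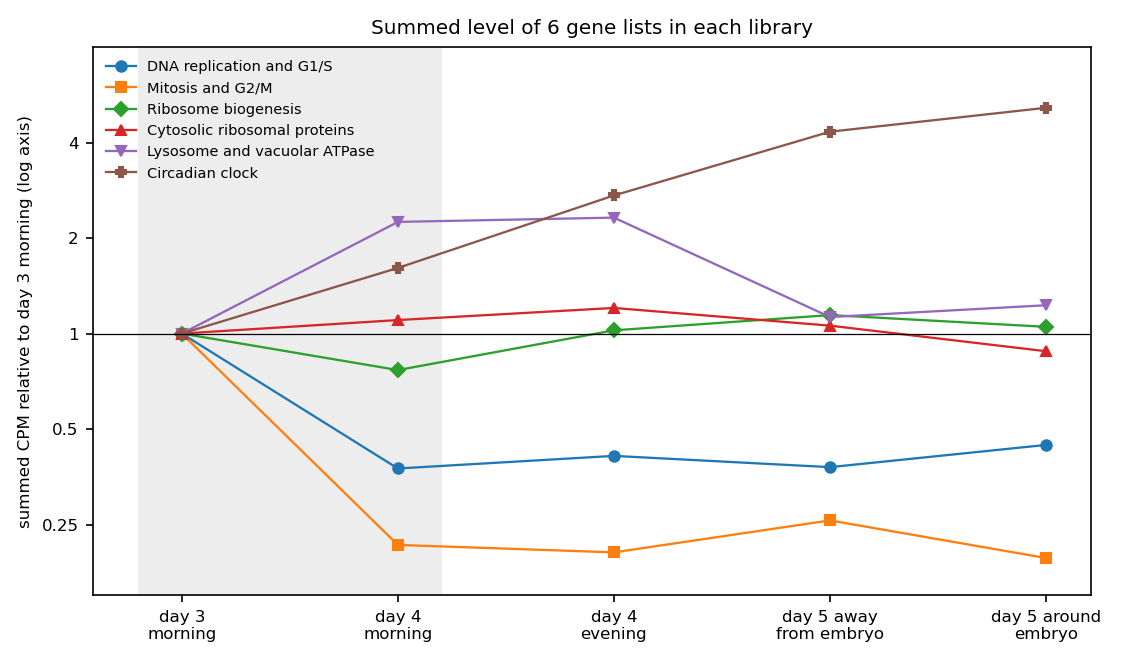
Points give the summed CPM of 6 gene lists in each of the 5 libraries, divided by the sum on day 3 morning (log axis); the 2 morning libraries compared are shaded and lines only join the points. The mitosis sum was 3416 CPM on day 3 morning and between 670 and 880 CPM in the later libraries, while the lysosome sum was 18657 and 41949 CPM on the 2 mornings.

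The genes that control entry into the cycle were mixed. Of 27 listed, 26 were kept, 5 were lower and 2 were higher (median -0.14, and 0 higher and 8 lower with library totals). Among the lower genes, *Ccnd1*, cyclin D1, was at 68.3 and 14.3 CPM, *Mycn* at 44.0 and 9.58 CPM and *Myc* at 50.0 and 14.9 CPM. The Cdk inhibitor p21, encoded by *Cdkn1a*, was lower as well, at 18.9 and 2.90 CPM. *Ccng1*, an atypical cyclin and the highest of the list in RPKM, was 1.79-fold higher and so within 2-fold, and the 2 higher genes were the antiproliferative *Btg1* and *Btg2* (1.28 and 1.04), neither of which passed with library totals. Most factors of ribosome biogenesis were within 2-fold, as were 10302 of all 12631 genes kept. Of 45 genes, 6 (13.3%, beside 11.2% of all genes) were lower, none was higher and 40 were negative (median -0.61, and 0 higher and 17 lower with library totals), and the sum was 2218 and 1702 CPM. *Gar1*, a protein of the small nucleolar particles that make pseudouridine, was 3.00-fold lower, *Tcof1* 3.03-fold, *Utp20* 2.42-fold and *Nop56* 2.20-fold. *Npm1*, nucleophosmin, was at 531 and 391 CPM. None of 80 cytosolic ribosomal protein genes kept, which build the ribosome itself, was past 2-fold (median 0.12, but -0.18 with library totals and -0.03 with totals without *Rn45s* and *Lars2*), and the lowest was *Rps2* (-0.68). Genes of this family have many processed copies, and reads shared with them make single values uncertain. None of 74 genes of mitochondrial oxidative phosphorylation was past 2-fold either (median -0.19, and 0 higher and 3 lower with library totals), the lowest being *Ndufa5* (-0.86), a subunit of complex I.

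Genes known to be induced by estrogen in uterine epithelium were lower on day 4 morning. Of 24 listed, 19 were kept, 15 were lower and 1 was higher (median -2.61, and 0 higher and 18 lower with library totals), beside 11.2% and 7.22% of all genes. *Ltf*, lactoferrin, the classical estrogen-induced secretion of the uterus, had 6232 counts on day 3 morning and 932 on day 4 morning and was 6.91-fold lower (95% interval -2.89 to -2.69 on the log2 scale). *Sprr2f*, a small proline-rich protein of the cell envelope, was the highest of the list in RPKM and stood at 1093 CPM on day 3 morning and 125 CPM on day 4 morning. The other *Sprr2* genes kept were lower too, but these are near-identical copies whose reads may be split between them. *C3*, complement component 3, had 348 and 22 counts, and *Greb1*, a coactivator of the estrogen receptor, 306 and 32 counts. *Aqp5*, a water channel, had 291 and 4 counts, 75.2-fold lower (interval of the log2 ratio -8.12 to -4.86). *Lcn2*, an iron-binding lipocalin, had 481 and 58 counts. The 1 higher gene was *Igf1* (1048 and 2501 counts), a growth factor that the uterine stroma also makes, and this call ended with library totals. The stromal sum was 841 and 806 CPM. The genes within 2-fold were *Prom1*, *Cfb* and *Muc1*, all negative and past 2-fold with library totals.

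Genes known to respond to progesterone in uterine epithelium were higher more often than lower. Of 22 listed, 21 were kept, 11 were higher and 3 were lower (median 1.07, and 5 higher and 3 lower with library totals), beside 7.22% and 11.2% of all genes. *Zbtb16*, a zinc finger repressor induced by progesterone, had 24 counts on day 3 morning and 304 on day 4 morning, 12.2-fold higher (log2 change 3.51, 95% interval 3.01 to 4.28). *Fkbp5*, a co-chaperone of steroid receptors, was at 33.2 CPM on day 3 morning and 97.3 CPM on day 4 morning. *Areg*, amphiregulin, a ligand of the EGF receptor and an early progesterone target, was 2.56-fold higher (446 and 1182 counts). *Il13ra2*, a decoy receptor of interleukin 13, was 2.94-fold higher. *Fxyd4*, a regulator of the sodium pump, was at 488 and 1107 CPM and highest of the list in RPKM. *Hdc*, which makes histamine, and *Irg1*, which makes itaconate, were at 1001 and 2344 CPM and 377 and 937 CPM. *Ihh*, the hedgehog signal from the epithelium to the stroma, was 1.45-fold higher and so did not pass. The 3 lower genes were *Spp1*, osteopontin (139.7 and 23.1 CPM), the kinase gene *Sgk1* (793 and 284 CPM) and *Gpx3* (13.1 and 6.35 CPM).

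**Figure D5:**
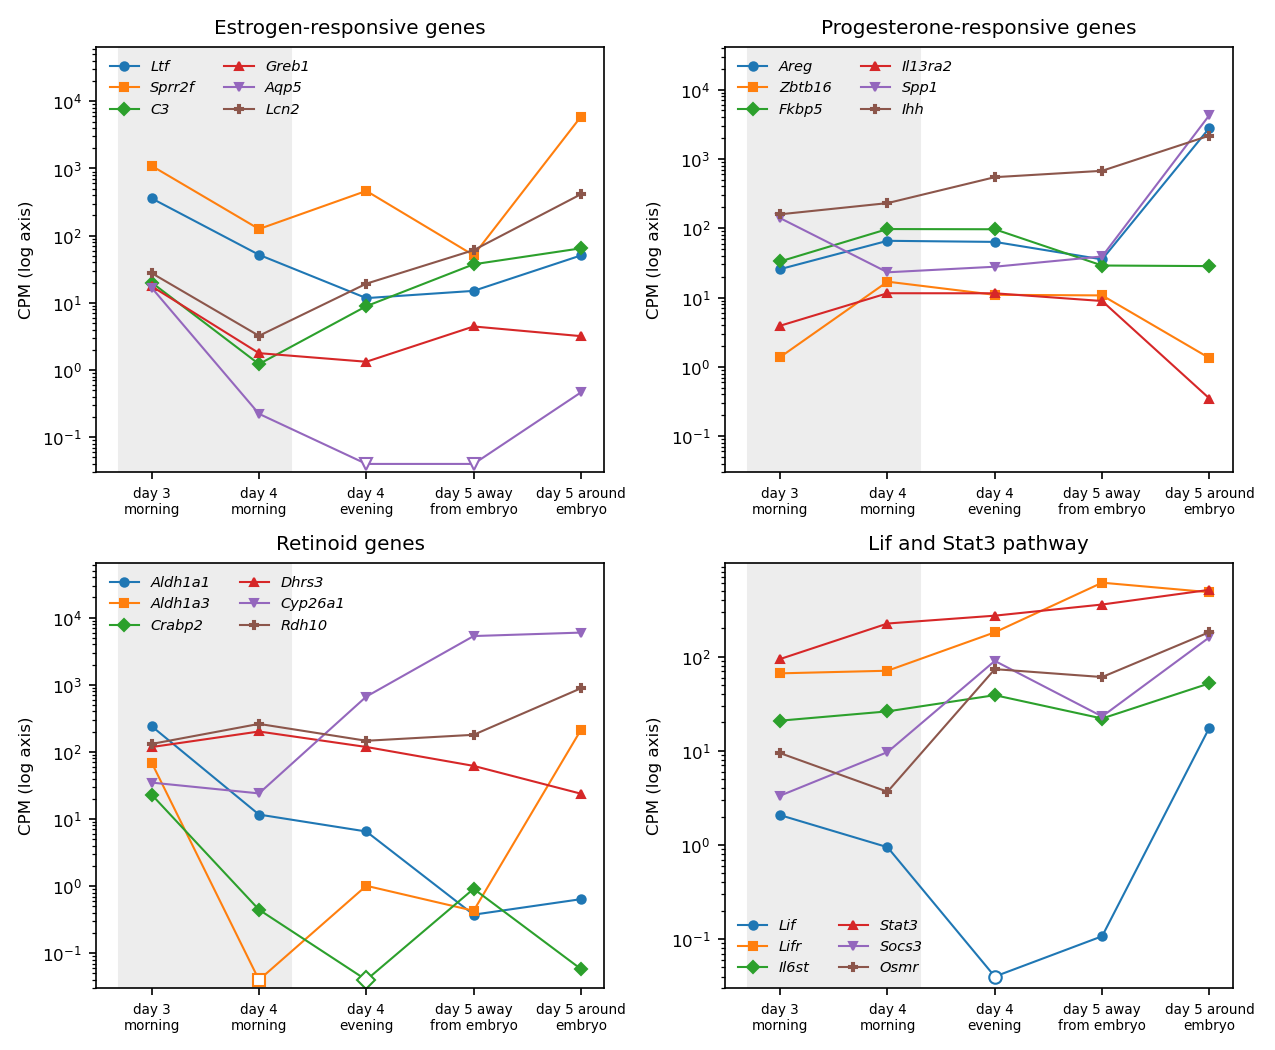
CPM (log axis) of 6 genes each from the estrogen-responsive, progesterone-responsive, retinoid and Lif lists in the 5 libraries, 1 point per library, with the 2 mornings compared shaded and 0 counts drawn as open symbols at the bottom. *Ltf* was at 359 and 51.9 CPM and *Areg* at 25.7 and 65.8 CPM over the shaded step, and *Aldh1a3* had no count on day 4 morning.

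Of the receptors of these hormones, 1 was lower and the other stayed within 2-fold. *Pgr* (chr9:8899833-8968611, plus strand), the progesterone receptor, was at 415 CPM on day 3 morning and 166 CPM on day 4 morning (log2 change -1.32, 95% interval -1.38 to -1.26). *Esr1*, estrogen receptor alpha, was at 109.6 and 149 CPM, 1.36-fold higher and within 2-fold. Among 37 nuclear receptors and coregulators, 30 were kept, 4 were lower and 1, *Fkbp5*, was higher (median 0.30, and 1 higher and 5 lower with library totals). The lower ones were *Greb1*, *Nr4a1*, *Pgr* and *Rarb*. *Pgrmc1*, a membrane heme protein, was highest in RPKM and level, at 530.0 and 616 CPM, and *Thrb*, a thyroid hormone receptor, was 1.99-fold higher and just within 2-fold.

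The genes that make and bind retinoic acid held some of the largest decreases. Of 22 listed, 14 were kept, 5 (35.7%, beside 11.2% of all genes) were lower and 1 was higher (median -0.64, and 0 higher and 7 lower with library totals). Besides *Aldh1a3*, its relative *Aldh1a1* (chr19:20601982-20643462, plus strand), which oxidises retinal to retinoic acid, had 4184 counts on day 3 morning and 209 on day 4 morning, 20.7-fold lower (log2 change -4.36, 95% interval -4.58 to -4.17). *Aldh1a1* also stands in the glandular list, of which *Foxa2* had 32 and 51 counts and *Lif* 36 and 17 counts in the same libraries. *Crabp2*, which carries retinoic acid to its receptor, had 400 and 8 counts, 51.7-fold lower. The third enzyme of the pair's family, *Aldh1a2*, was low and within 2-fold (160 and 128 counts). *Dhrs3*, which turns retinal back to retinol and was highest in RPKM, and *Rdh10*, which makes retinal, were 1.71-fold and 1.99-fold higher, both within 2-fold, although *Rdh10* passed with DESeq2 size factors. The breakdown enzyme *Cyp26a1* was at 34.8 and 24.1 CPM.

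*Lif* itself was close to the limit of these libraries, with 36 counts on day 3 morning and 17 on day 4 morning (log2 change -1.04, 95% interval -2.06 to -0.26), and this call ended with a prior count of 5. *Lifr*, its receptor, was at 66.5 and 70.9 CPM and *Il6st*, which encodes gp130, at 20.9 and 26.2 CPM, both within 2-fold. Downstream of them *Stat3* (chr11:100886810-100939511, minus strand) was at 94.4 CPM on day 3 morning and 225 CPM on day 4 morning, 2.38-fold higher (log2 change 1.25, 95% interval 1.17 to 1.34), although its log2 change was 0.95 with library totals. *Socs3*, the feedback inhibitor that Stat3 induces, had 58 and 174 counts, 2.90-fold higher. Of 36 genes of the Lif family and Jak-Stat signalling 30 were kept, 6 were higher and 3 lower (median 0.14, but with library totals -0.16, with 2 higher and 4 lower). The higher genes were *Socs3*, *Stat2*, *Stat3*, *Socs7*, *Ctf1*, which encodes cardiotrophin 1 of the same cytokine family, and *Socs1*. Of these, only *Socs3* and *Stat2* passed with library totals. The lower ones besides *Lif* were *Il6* (657 and 238 counts) and the oncostatin M receptor *Osmr* (164 and 66 counts). *Jak2*, the kinase highest in RPKM, was at 391 and 739 CPM and just within 2-fold.

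Ligands of the EGF family went different ways. Of 21 genes 15 were kept, with 4 lower and 2 higher (median 0.20). *Hbegf*, the heparin-binding ligand known for its local induction at attachment, was at 23.5 and 7.46 CPM and *Tgfa* at 23.3 and 7.85 CPM, both lower, while *Areg* was higher. *Spry2*, a feedback inhibitor of the receptors, was 1.82-fold higher and within 2-fold.

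In the prostaglandin list an enzyme and a transporter were lower, and 2 receptors and a breakdown enzyme were higher. Of 26 genes of prostaglandins and lysophosphatidic acid 17 were kept, 3 were higher and 2 lower (median 0.26). The lower 2 were *Slco2a1* and *Ptgs2*, the inducible cyclooxygenase, which had 1553 counts on day 3 morning and 335 on day 4 morning (log2 change -2.25, 95% interval -2.44 to -2.09). *Lpar3*, the lysophosphatidic acid receptor needed for timely implantation, was at 267 CPM on day 3 morning and 683 CPM on day 4 morning, 2.56-fold higher. *Ptger2*, a receptor of prostaglandin E2, was 2.65-fold higher, and the breakdown enzyme gene *Hpgd* was the other higher gene. *Ptges3*, highest in RPKM, was level at 1159 and 1067 CPM.

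Among transcription factors of uterine epithelium, 41 of 48 were kept, 5 were higher and 5 lower (median 0.28, and 2 higher and 10 lower with library totals). Of the inhibitors of differentiation, which block basic helix-loop-helix factors and are targets of Bmp signals, *Id1*, *Id3* and *Id4* were lower. *Id3* was at 343 CPM on day 3 morning and 39.4 CPM on day 4 morning and *Id1* at 250.4 CPM on day 3 morning and 33.7 CPM on day 4 morning. *Id2*, highest of the list in RPKM, was 1.46-fold lower and within 2-fold. *Msx2* (chr13:53466881-53472780, minus strand), a homeobox factor, had 1259 counts on day 3 morning and 52 on day 4 morning (log2 change -4.59), whereas its relative *Msx1*, which marks the epithelium before attachment, was at 480.2 and 587 CPM. *Elf5*, an Ets factor that trophoblast also expresses, had 49 and 148 counts and was higher. *Klf5*, needed in this epithelium for attachment, was 1.55-fold higher and within 2-fold.

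Several ligands, receptors and targets of Wnt signalling were lower. Of 56 listed 39 were kept, 11 (28.2%, beside 11.2% of all genes) were lower and 4 higher (median -0.29, and 1 higher and 14 lower with library totals). *Wnt4* had 433 and 61 counts and *Wnt7b* 668 and 115 counts. *Wnt7a*, the ligand typical of this epithelium, was at 157 and 74.0 CPM. Also lower were *Lgr5* (24.8 and 6.01 CPM), a receptor for R-spondins and a target of the pathway, and the receptor gene *Fzd8* (159 and 36 counts). *Fzd6*, the receptor highest in RPKM, was 1.44-fold higher and within 2-fold. In the Bmp, activin and TGF-beta list 31 of 41 were kept, 7 were lower and none was higher (median 0.04). *Bmp1* (19.1 and 7.68 CPM), *Bmp5* (20.3 and 8.35 CPM) and the receptor *Tgfbr1* (63.7 and 31.7 CPM, at the edge of the call) were lower, while the pseudoreceptor *Bambi* was 1.71-fold higher and *Acvr1* 1.88-fold, both within 2-fold. In the Notch list 20 of 24 were kept, 3 were higher and 3 lower (median 0.20, and 0 higher and 4 lower with library totals). *Rfng*, which modifies Notch with sugar, was 2.39-fold higher and the target *Hey2* 2.32-fold, and *Notch3* was 2.66-fold lower. *Numb*, an inhibitor of Notch, was 1.96-fold higher and *Hes1*, highest in RPKM, was level at 153 and 134 CPM.

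Some genes of the apical surface were lower. Of 24 listed mucins and surface proteins 15 were kept, 5 were lower and 1 higher (median -0.41, and 0 higher and 7 lower with library totals). *Muc20* had 343 and 3 counts (ratio 118, interval of the log2 change -9.17 to -5.33), *Muc4* had 527 and 65 counts and *Prap1*, a secreted proline-rich protein, 6991 and 1260 counts. *Muc1*, the main mucin barrier of the lumen, was at 139.7 and 83.9 CPM, 1.67-fold lower and within 2-fold. *Wfdc2*, highest in RPKM, was at 939 and 1198 CPM. Enzymes that build glycans held large changes in both directions. Of 43 listed 35 were kept, 4 were higher and 6 lower (median 0.25, and 3 higher and 8 lower with library totals). Besides *Hs3st1*, *Galnt3*, which starts O-glycans, was 3.77-fold lower and *B3gnt3* 3.29-fold. *Fut2*, the fucosyltransferase of uterine epithelium, was 2.41-fold lower (1484 and 637 counts). *Gcnt3*, highest in RPKM, was at 625 and 792 CPM. At lower counts *St6galnac1*, a sialyltransferase, had 3 and 96 counts (ratio 30.9, 95% interval 3.36 to 7.25 on the log2 scale), and *B3galt5* had 72 and 0 counts, at least 24.8-fold lower against the floor.

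Most genes of the lateral contacts were within 2-fold, as were 10302 of all 12631 genes kept. In the tight junction and polarity list 28 of 33 were kept, 4 were lower and 1 higher (median 0.04, and 0 higher and 4 lower with library totals). The claudins parted: *Cldn3*, highest in RPKM, was at 1056 CPM on day 3 morning and 2452 CPM on day 4 morning, 2.32-fold higher, while *Cldn1* was 4.88-fold lower (276 and 56.6 CPM) and *Cldn4* 2.42-fold. *Inadl*, a scaffold of the apical polarity complex, was 1.94-fold higher and just within 2-fold. Among cadherins, catenins and desmosome genes 20 of 26 were kept, 4 were lower and none was higher (median -0.08). *Dsc2*, a desmosomal cadherin, was 5.60-fold lower and *Pvrl3*, nectin 3, 2.43-fold, and *Pkp4* was 1.93-fold higher and within 2-fold. *Cdh1*, E-cadherin, was level at 528 and 591 CPM, and *Epcam*, highest in RPKM, was 1.42-fold lower. Of 15 keratins 8 were kept and 2 were lower (median -0.09, and 0 higher and 3 lower with library totals). *Krt17*, a keratin of stressed epithelia, had 269 and 3 counts (ratio 92.7, interval of the log2 change -8.82 to -4.97). The simple keratins differed little, with *Krt18* at 747 and 932 CPM, *Krt19* at 866 and 763 CPM and *Krt7*, at 142 and 71.9 CPM, just within 2-fold.

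Ion and water transport also differed gene by gene. Of 45 genes 33 were kept, 8 were lower and 5 higher (median 0.04, and 2 higher and 9 lower with library totals). *Cftr*, the chloride channel that drives secretion into the lumen, was at 59.8 CPM on day 3 morning and 10.6 CPM on day 4 morning, 5.66-fold lower. *Ano9*, of the anoctamin family, was 6.51-fold lower, and *Sgk1*, a kinase that raises sodium channel activity, 2.79-fold. Of the other genes named from this list, *Aqp5* was lower and *Fxyd4* was higher. The largest log2 change upward in the list was 2.14, beside 1.18 for *Fxyd4*. The summed level of the list was 5186 CPM on day 3 morning and 7098 CPM on day 4 morning. Genes of calcium-binding proteins went both ways, and some were at high levels. In the annexin, S100 and calpain list 30 of 39 were kept, 6 were higher and 7 lower (median -0.39, and 3 higher and 9 lower with library totals). *S100g* (chrX:162961992-162964599, minus strand), calbindin D9k, was at 436 CPM on day 3 morning and 2100.1 CPM on day 4 morning, 4.81-fold higher (log2 change 2.27, 95% interval 2.23 to 2.30). *Anxa3* was 3.91-fold lower and *S100a14* 7.57-fold. *Pthlh*, a hormone-like regulator of calcium, had 291 and 54 counts.

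Lysosomal genes carried more counts on day 4 morning, mainly through 1 gene. The sum of the list was 18657 and 41949 CPM, of which *Ctsd* (chr7:142375916-142387870, minus strand) was 11039.5 and 32726 CPM, 2.96-fold higher (log2 change 1.57, 95% interval 1.56 to 1.58). Of 41 genes 38 were kept, 4 were higher and 1 was lower (median 0.24, but with library totals -0.06, with 1 higher and 2 lower). *Npc2*, which moves cholesterol out of lysosomes, was 2.09-fold higher, *Hexa*, a lysosomal hexosaminidase, 1.93-fold and just within 2-fold, and *Ctsk*, cathepsin K, 2.13-fold lower. Some glutathione and antioxidant enzymes were among the most abundant mRNAs, while the median member of the list was at 49.0 and 60.3 CPM. Of 43 genes 39 were kept, 4 were higher and 5 lower (median 0.11, and 2 higher and 8 lower with library totals). *Gstm1* was at 1817 and 4302 CPM and *Gstm2* at 1739 and 4295 CPM, while *Gstm7* was at 842 and 296 CPM and *Gstm5* at 38.3 and 9.52 CPM. The Gstm genes are close copies next to each other, so that their single values are uncertain. *Gsta4*, which clears lipid aldehydes, was 3.20-fold higher, and *Gsto1* was at 1624 and 2990.3 CPM.

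With the scaled sizes the circadian list had no lower gene. Of 19 listed 18 were kept and 8 were higher (median 0.64, and 6 higher and 2 lower with library totals), beside 7.22% of all genes, and the sum was 251 and 404 CPM. Clock genes cycle through the day, and the hours of the 2 collections are not known here. *Rora*, a nuclear receptor that activates the Bmal1 gene, had the largest change (19 and 111 counts). *Npas2*, a partner of Bmal1, was 3.38-fold higher (396 and 1384 counts). The PAR domain factors *Tef* and *Dbp*, outputs of the clock, were 3.26-fold and 2.97-fold higher, and *Nfil3*, their repressor counterpart, 2.81-fold. *Arntl*, which encodes Bmal1 and which *Npas2* or *Clock* completes, was within 2-fold (0.23), as were *Nr1d1* (-0.11) and *Per2* (-0.68).

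Several chemokines and interleukin 1 relatives were lower. Of 38 listed 26 were kept, 9 (34.6%, beside 11.2% of all genes) were lower and 4 higher (median -0.47, and 3 higher and 12 lower with library totals). *Ccl28*, a mucosal chemokine, had 557 and 46 counts, and *Cxcl14* 786 and 169 counts. *Il33*, an alarmin, had 67 and 0 counts, at least 23.1-fold lower against the floor. *Cxcl17*, highest in RPKM, was level at 65.3 and 58.8 CPM. The immune marker sum was 263 and 378 CPM. *Ptprc*, the pan-leukocyte gene, was at 7.83 and 19.5 CPM, and *Ncr1*, a natural killer cell receptor, had 75 and 216 counts. Of the 7 immune markers kept these were the 2 higher ones. *Cd68* was the 1 negative, at log2 -0.82, and -1.11 with library totals. Of 40 interferon-stimulated genes, all kept, 5 were higher and 4 lower (median -0.28, and 1 higher and 11 lower with library totals). The antiviral *Oas3* was 4.57-fold lower and *Gbp2* 3.01-fold, while *Isg20* was 2.33-fold and *Stat2* 2.55-fold higher, and *B2m*, the light chain of class I molecules, was at 2990.3 and 2239 CPM. Of 31 AP-1 and immediate early genes 25 were kept, 5 were lower and 3 higher (median -0.63, and 1 higher and 10 lower with library totals). *Cyr61* was 8.68-fold lower while *Ctgf*, of the same protein family, was 7.34-fold higher. *Jun* was at 188 and 77.8 CPM, and *Jund*, highest in RPKM, at 687 and 600.1 CPM.

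Proteases and death regulators differed gene by gene. In the protease and inhibitor list 36 of 49 were kept, 8 were lower and 2 higher (median -0.10, and 1 higher and 11 lower with library totals). *Mmp7*, matrilysin, had 236 and 13 counts, and *Plat*, the tissue plasminogen activator, was at 753 and 217 CPM, while *Serpine2*, an inhibitor of such proteases, was 3.83-fold higher (68.7 and 263 CPM). *Serpinb9*, an inhibitor of granzyme B, was 2.99-fold lower. Of 36 death regulators 33 were kept, 4 were lower and 2 higher (median -0.03, and 2 higher and 6 lower with library totals). The BH3-only genes went both ways: *Bbc3* and *Bik* were higher (log2 1.48 and 1.31), and *Bcl2l11* 2.99-fold and *Pmaip1* 2.36-fold lower. *Bcl2l1*, the survival gene highest in RPKM, was 1.66-fold higher and within 2-fold.

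Most genes of sterol synthesis and of the folding of secreted proteins were within 2-fold, as were 10302 of all 12631 genes kept. Of 25 cholesterol genes 24 were kept, 5 (20.8%, beside 11.2% of all genes) were lower, 1 was higher and 20 were negative (median -0.56, and 1 higher and 9 lower with library totals). *Sqle*, squalene epoxidase, was 4.00-fold lower. *Mvd* was 2.76-fold lower, and *Pmvk*, highest in RPKM, was level (-0.11). Of 30 genes of folding in the endoplasmic reticulum 4 (13.3%) were lower, none was higher and 26 were negative (median -0.44, and 0 higher and 7 lower with library totals). *Sdf2l1* was 3.49-fold lower and *Pdia6*, a disulfide isomerase, 2.30-fold. *Manf* was at the edge of the call (169.9 and 84.7 CPM), *Hspa5*, the chaperone BiP, was within 2-fold (-0.89), and *Hsp90b1*, highest in RPKM, was level at 918 and 949 CPM.

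Other metabolic lists held genes in both directions. All 23 fatty acid genes were kept, 3 were higher and 4 lower (median 0.14, and 1 higher and 4 lower with library totals). The elongases *Elovl7* and *Elovl6* were 6.07-fold and 5.42-fold lower and *Me1*, which supplies NADPH, 3.60-fold, while the desaturase *Fads1* was 3.95-fold higher and *Dgat2*, highest in RPKM, was at 641 and 807 CPM. Of 33 genes of glycolysis and the hypoxia response 31 were kept, 2 were higher and 4 lower (median -0.06, and 1 higher and 5 lower with library totals). *Slc2a3*, a glucose transporter, was at 138 CPM on day 3 morning and 488 CPM on day 4 morning, 3.54-fold higher, and *Pfkfb3*, an activator of glycolysis, was 2.45-fold higher. *Aldoc* was 4.47-fold and *Ankrd37* 2.37-fold lower, and *Ldha*, highest in RPKM, was level at 742 and 711 CPM. Of 31 genes of polyamine synthesis and amino acid transport 26 were kept, 4 were higher and 5 lower (median -0.02, and 2 higher and 9 lower with library totals). The transporters parted, with *Slc1a1* 3.00-fold and *Slc1a4* 3.01-fold higher and the cystine carrier *Slc7a11* 3.72-fold lower. *Paox*, which breaks polyamines down, was 2.85-fold lower, and *Sat1*, highest in RPKM, 1.98-fold and just within 2-fold.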

How the data were processed

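The deposited table held whole read counts per gene for 5 libraries, 1 per group, with the summed exon length of each gene. As the study's methods and the submitters' processing notes state, the authors amplified RNA of microdissected epithelium by SMART-seq, aligned paired reads to GRCm38 with HISAT2 and counted them with featureCounts (Subread 2.0.0). The annotation, strand setting and handling of multi-mapping reads are not given in the sources used here, so that overlapping and antisense genes and close copies may share reads. The other libraries of the study were not analysed here.

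Counts were scaled by TMM over the 5 libraries (edgeR 4.0.16, R 4.3.3; DESeq2 1.42.0 as an alternative) and expressed as log2 CPM with a prior count of 2. Genes that averaged 1 CPM or more over the 2 morning libraries were kept. RPKM was computed from the deposited length. Exact 95% Clopper-Pearson intervals of the count ratio (SciPy 1.17.1) and the floor of 3 counts cover counting error only. Amplified reads are not independent molecules, so that these intervals may be too narrow even for that error. Scripts were tested on simulated data. Alternatives covered the scaling, the prior count, the filter and a fixed dispersion.

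Genes were named by rule: the 12 largest increases and 12 largest decreases at an average of 10 CPM or more, up to 4 members per list with the largest change at an average of 5 CPM or more and the member highest in RPKM, genes central to the study, and the 10 genes with the most counts. Members and lists were chosen with earlier results of these data known. *Aldh1a2*, *Arntl*, *B3galt5*, *Btg1*, *Btg2*, *Ccnf*, *Cdc20*, *Cdk1*, *Cfb*, *Clock*, *Ctf1*, *Cyp26a1*, *E2f8*, *Gins3*, *Gpx3*, *Hdc*, *Hpgd*, *Igf1*, *Il33*, *Incenp*, *Irg1*, *Ncaph*, *Nr1d1*, *Nr4a1*, *Per2*, *Prom1*, *Pttg1*, *Rarb*, *Rdh10*, *Rora*, *Socs1*, *Socs7*, *St6galnac1*, *Id4*, *Tagln* and *Tyms* were named outside this rule, after their values were seen. Gene coordinates are those of the deposited table, and promoters come from RefSeq on GRCm38.p6. Some genes that the rule names are not reported here.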

Additional observations from a re-analysis of the deposited data

How the results depend on the processing

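The counts depended on the scaling, the filter and the way of calling. With library totals 490 genes were higher and 2163 lower, in place of 912 and 1417, and the median log2 change of all genes was -0.29 in place of 0.01. It was -0.15 with totals without *Rn45s* and *Lars2*, 0.025 with DESeq2 size factors, -0.016 with no filter and 0.021 with an average of 5 CPM or more. With no filter 1686 genes were higher and 2682 lower, and with an average of 5 CPM or more 525 and 828. The edgeR exact test needs a dispersion, which 1 library per group cannot give. At an assumed dispersion of 0.1 it called 94 genes higher and 399 lower, and at 0.4 it called 0 higher and 1 lower, so that these counts rest on the assumed value.

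With library totals the list medians that left the 95% binomial interval of the reported median were -2.79 for mitosis, -0.90 for ribosome biogenesis, -0.85 for cholesterol synthesis, -0.16 for Lif and Jak-Stat, -0.73 for endoplasmic reticulum folding, -0.58 for interferon-stimulated genes, -0.93 for AP-1 genes, -0.36 for glycolysis, -0.058 for the lysosome, -0.33 for cell death, -0.74 for annexins, -0.18 for ribosomal proteins and -0.49 for oxidative phosphorylation. With totals without *Rn45s* and *Lars2* they were -0.76 for ribosome biogenesis, -0.78 for AP-1 genes, -0.21 for glycolysis, -0.029 for ribosomal proteins and -0.34 for oxidative phosphorylation. Among genes named in the text, the calls of *Lif*, *Socs1* and *Tgfbr1* ended with a prior count of 5, and those of *Manf* and *Tgfbr1* with DESeq2 size factors. No paired analysis was possible because each group had 1 library, and for the same reason no replicate could be left out. Variation between females could not be measured, and by the counting interval alone 453 of the 912 higher and 913 of the 1417 lower genes lay wholly past 2-fold.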

Other observations

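Several genes that were low on day 4 morning were high again around the embryo on day 5, and their levels are given side by side with no comparison. The levels are in the order day 3 morning, day 4 morning, day 4 evening, and day 5 away from and around the embryo. *Aldh1a3* was at 69.0, 0, 1.01, 0.429 and 213 CPM. *Slco2a1* was at 38.1, 0.223, 1.26, 1.18 and 36.9 CPM, and *Krt17* at 15.5, 0.167, 3.22, 1.66 and 677 CPM. *Ptgs2* was at 89.4, 18.7, 61.4, 3.59 and 479 CPM, with a level above that of day 4 morning already on day 4 evening. *Cdkn1a* was at 18.9, 2.90, 4.235, 8.10 and 203 CPM. *Gabrp* was at 27.9, 0.111, 1.14, 92.2 and 50.4 CPM. Other genes stayed low once low: *Crabp2* had 8, 0, 17 and 1 counts from day 4 morning on, *Msx2* 52, 13, 34 and 29, and *Fndc1* 15, 0, 0 and 4. Among the genes higher on day 4 morning, *Drd4* was at 44.4 CPM then, 11.6 CPM on day 4 evening and 0.0536 CPM on day 5 away from the embryo, and *Ripply3* was at 79.5, 78.9 and 0.643 CPM. Each level rests on 1 library.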
